A study of Bos taurus with 8 samples.

Results

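The insulin-like growth factor (IGF) axis was followed in bovine rumen papillae through 10 genes chosen by symbol. These were the ligands IGF1 and IGF2, the receptors IGF1R and IGF2R, the binding proteins IGFBP2 to IGFBP6, and IGFALS, the acid-labile subunit that holds IGF and binding protein in a large complex in blood. A gene was found where the RefSeq accession of a probe belonged to that symbol in the bovine gene table. This gave 1 probe each for 6 of the 10 genes (IGF2, IGF2R, IGFBP2, IGFBP3, IGFBP4 and IGFBP6), out of 7788 genes named on the array. IGF1, IGF1R, IGFBP5 and IGFALS were not matched to a probe and are not analysed here.

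The papillae came from 4 ruminally cannulated, lactating female Holstein cattle, fed in a crossover of 2 periods. The LC diet held 40% concentrate and the HC diet 70%, and every cow received each of them. Papillae were taken on day 21 of a period, 4 h after the morning feed, and each sample was hybridized to 1 single-colour array. Cows 1 and 2 received LC in period 1 and HC in period 2, and cows 3 and 4 received the diets in the opposite order.

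IGF1 and IGF2 are growth factors that act mainly through the kinase receptor IGF1R, whereas IGF2R carries IGF2 to lysosomes for breakdown. The binding proteins hold IGFs in blood and tissue fluid, which prolongs their life and limits or focuses their access to the receptor. Some of them also act on cells without IGF. In ruminants the axis has been studied as a link between feed energy, fermentation acids and the growth of the papillae.

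Signals are quantile-normalized log2 intensities, and per array 76.9 to 81.2% of the 21475 probes were well above background by the scanner software. All 6 IGF axis probes were so on all 8 arrays. Of the epithelial markers, KRT14, DSP, IVL and DSG1 were above background on all 8 arrays and TP63 on none. In the deposited table of normalized values, the columns of cows 1 and 2 follow each other's scanner arrays on both diets, so which of these 2 cows a value belongs to is not settled. Cow numbers below are those of the scanner files. The exchange leaves the groups by diet and period and the pairing by cow as they are.

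The comparison between diets asks which genes of the rumen wall respond to concentrate feeding, and none of the 6 genes was called for it. A call needed 1.5-fold or more together with p under 0.05 before adjustment in limma, and the thresholds were taken from the study's methods. Of the 6 genes 0 met this, against 0.922% of all probes (198 of 21475). Among the probes above background on all 8 arrays, as these genes were, the share was 0.274% (44 of 16030). The p values of the 6 genes were all above 0.05 in limma and also in a general linear model without moderation, and the adjusted p from limma, over all probes, was 1.00 for each. The median log2 difference (HC minus LC) was 0.03 over the 6 genes and -0.00 over all probes. The genes differed instead in how far they spread over the arrays. IGF2 and IGF2R stayed within a range of 0.26 and 0.29 (log2), and the ranges of the 4 binding proteins were 1.14 to 2.16.

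**Figure D1:**
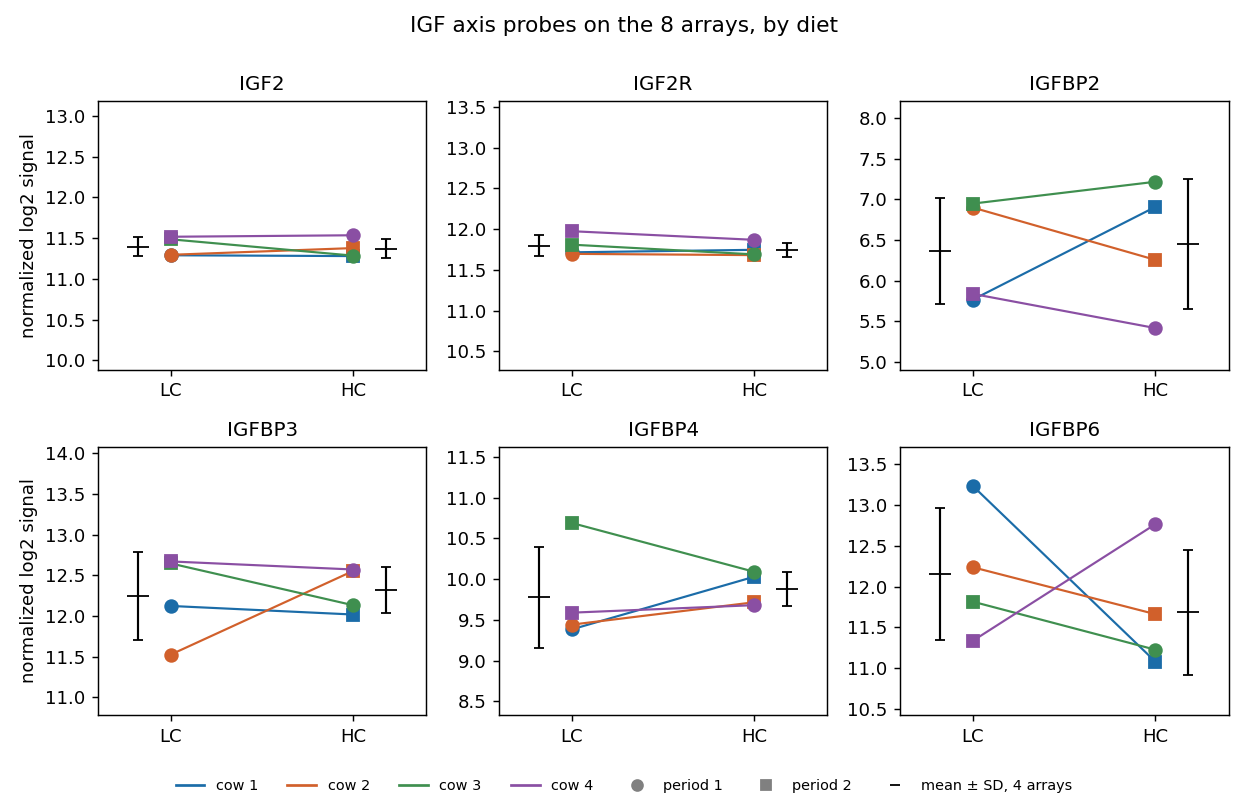
Normalized log2 signal of the 6 IGF axis probes on LC and HC, with each vertical axis covering the same number of log2 units. Lines join the arrays of a cow, circles are period 1 and squares period 2, and the black marks give the mean ± SD of 4 arrays. IGF2 and IGF2R lie nearly level, while the lines of IGFBP2, IGFBP3, IGFBP4 and IGFBP6 rise in some cows and fall in others.

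IGF2, the ligand of fetal growth that also remains active in adult tissue, was measured by the probe of NM_174087. Its log2 signal in cows 1 to 4 was 11.29, 11.30, 11.49 and 11.52 on LC and 11.28, 11.38, 11.29 and 11.54 on HC. The diets overlapped, and the arrays of cow 4 were the highest of their diet. The mean was 11.40 ± 0.12 (SD, n = 4) on LC and 11.37 ± 0.12 (SD, n = 4) on HC. HC minus LC came to -0.03 on the log2 scale (standard error 0.09, unadjusted limma p 0.781), and the exact two-sided permutation test gave 0.83. The 95% interval ran from 0.837 to 1.15-fold. The 2 spots of the probe differed by a median of 0.13 within an array, against an SD of 0.11 over the 8 arrays.

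IGF2R, the receptor that clears IGF2 and also sorts lysosomal enzymes, was measured by the probe of NM_174352. Its log2 signal in cows 1 to 4 was 11.72, 11.70, 11.81 and 11.97 on LC and 11.75, 11.68, 11.69 and 11.87 on HC. The values overlapped, and cow 4 was again the highest on each diet. The mean was 11.80 ± 0.13 (SD, n = 4) on LC and 11.75 ± 0.09 (SD, n = 4) on HC. On the log2 scale HC was lower by a non-significant margin, -0.05 (standard error 0.09, unadjusted limma p 0.590, exact permutation test 0.571), with a 95% interval from 0.826 to 1.13-fold. The signal was lower on HC in cows 2, 3 and 4, by at most 0.12. In a fit blocked by cow that left out the moderation, a setting added after seeing the data, this small difference had an unadjusted p of 0.0489 in limma and stayed below the fold threshold. Among the 16030 probes above background on all arrays, 9.26% had a lower SD over the 8 arrays. For IGF2 and IGF2R the interval thus left out a 1.5-fold change in either direction, and the same held when cow was a block.

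IGFBP3, the main carrier of IGFs in serum, was measured by the probe of NM_174556. Its log2 signal in cows 1 to 4 was 12.12, 11.53, 12.64 and 12.67 on LC and 12.02, 12.55, 12.13 and 12.57 on HC. The HC values lay inside the range of the LC values. The mean was 12.24 ± 0.54 (SD, n = 4) on LC and 12.32 ± 0.29 (SD, n = 4) on HC. The diets were 0.08 apart (log2, standard error 0.20), with unadjusted limma p 0.710 and 0.971 in the exact permutation test. Within cows 1, 3 and 4 HC minus LC was -0.11, -0.51 and -0.10, and within cow 2 it was 1.03. The 95% interval was 0.756 to 1.47-fold, and -0.51 to 0.67 (log2) when cow was a block, which takes in 1.5-fold.

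IGFBP2, a binding protein with a preference for IGF2, was measured by the probe of NM_174555. Its log2 signal in cows 1 to 4 was 5.77, 6.90, 6.95 and 5.84 on LC and 6.91, 6.26, 7.22 and 5.42 on HC. Cow 3 was the highest on each diet, and the diets overlapped. The mean was 6.36 ± 0.65 (SD, n = 4) on LC and 6.45 ± 0.80 (SD, n = 4) on HC. Their distance was 0.09 (log2, standard error 0.50), with unadjusted limma p 0.869 and 0.886 in the exact permutation test. HC minus LC within cows 1 to 4 was 1.14, -0.64, 0.27 and -0.42, thus higher in 2 of 4 cows. The 95% interval ran from 0.457 to 2.47-fold and so took in 1.5-fold changes in both directions. So did the interval with cow as a block, -0.81 to 0.98 (log2). The raw intensity of its spots was 39.3 to 153, still above background on every array.

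IGFBP4, which restrains IGF action until a protease cleaves it, was measured by the probe of NM_174557. Its log2 signal in cows 1 to 4 was 9.38, 9.44, 10.69 and 9.59 on LC and 10.03, 9.72, 10.09 and 9.68 on HC. On LC cow 3 stood above the other cows, and all HC values lay between it and the next lower LC value. The mean was 9.78 ± 0.62 (SD, n = 4) on LC and 9.88 ± 0.21 (SD, n = 4) on HC. On HC the log2 mean was 0.10 higher (standard error 0.26, unadjusted limma p 0.698, exact permutation test 0.800). Cows 1, 2 and 4 had 0.65, 0.27 and 0.09 more on HC, and in cow 3 HC minus LC was -0.60. The 95% interval was 0.700 to 1.65-fold, which takes in a 1.5-fold rise. With cow as a block it was -0.31 to 0.52 (log2), which leaves out 1.5-fold in both directions. Without moderation the blocked interval was -0.74 to 0.95, which takes in both.

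IGFBP6, which binds IGF2 far more tightly than IGF1, had the widest range of the 6, from 11.08 to 13.24 (4.46-fold), and was measured by the probe of NM_001040495. Its log2 signal in cows 1 to 4 was 13.24, 12.24, 11.82 and 11.34 on LC and 11.08, 11.66, 11.23 and 12.77 on HC. Cow 1 on LC and cow 4 on HC were the highest, and the diets overlapped. The mean was 12.16 ± 0.81 (SD, n = 4) on LC and 11.68 ± 0.76 (SD, n = 4) on HC. This log2 difference of -0.47 (standard error 0.40) had unadjusted limma p 0.285 and 0.400 in the exact permutation test. HC minus LC was -2.16, -0.58 and -0.59 within cows 1, 2 and 3 and 1.43 within cow 4. Once the HC array of cow 4 was removed the difference was -0.86 (unadjusted limma p 0.0419), and among the 8 arrays this was the only one whose removal gave a call for diet in any of the 6 genes. As each array was left out in turn the difference ran from -0.86 to -0.087, and it was nearest to 0 without cow 3 on HC (unadjusted limma p 0.796). The 2 spots of the probe differed by at most 0.14 within an array, far less than the arrays differed, and 98.8% of the 16030 probes had a lower SD. The interval was 0.365 to 1.42-fold. With cow as a block it was -1.66 to 0.71 (log2), which takes in 1.5-fold changes in both directions.

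Each slide held the 4 arrays of 1 period, so the effects of slide and of period cannot be told apart. Within a period the diets were compared between different cows. In period 1 the log2 difference (HC minus LC) was 0.12 for IGF2, 0.07 for IGF2R, -0.02 for IGFBP2, 0.53 for IGFBP3, 0.47 for IGFBP4 and -0.74 for IGFBP6. In period 2 it was -0.17, -0.18, 0.19, -0.37, -0.27 and -0.21 in the same order. IGFBP6 kept its sign and the other genes changed theirs.

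For each of the 6 genes the difference between periods was larger in size than that between diets, and it too was not called. The same held over all probes, with a median size of 0.135 (log2) for period and 0.097 for diet. Of the 6 genes 0 passed for period in limma, against 3.86% of all probes, and 0 had p under 0.05 there or when cow was a replicate block in the moderated fit. Blocked by cow with no moderation, IGF2R had an unadjusted p of 0.0380 in limma at less than the fold threshold. IGFBP6 was lower in period 2 (11.47 ± 0.33, SD, n = 4) than in period 1 (12.37 ± 0.86, SD, n = 4). Period 2 minus period 1 was -0.89 (log2, standard error 0.40), a 1.86-fold lower signal, with unadjusted limma p 0.0674 and 0.143 in the exact permutation test. A random block for cow made it a call (unadjusted limma p 0.0408), and so did the removal of cow 3 on HC (-1.28) or of cow 2 on LC (-1.14). With cow 4 on HC removed it was smallest in size, -0.51 (unadjusted limma p 0.171). IGFBP3 was higher in period 2 by 0.38 (standard error 0.20), with unadjusted limma p 0.0996, and by 0.23 to 0.53 as each array was left out. IGFBP4 was higher by 0.36 (standard error 0.26, unadjusted limma p 0.209), and this became 0.63 and a call once cow 4 on LC was removed, but 0.082 (unadjusted limma p 0.618) once cow 3 on LC was. IGF2, IGF2R and IGFBP2 were 0.06, 0.06 and 0.16 higher in period 2, with unadjusted limma p of 0.524 to 0.758.

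**Figure D2:**
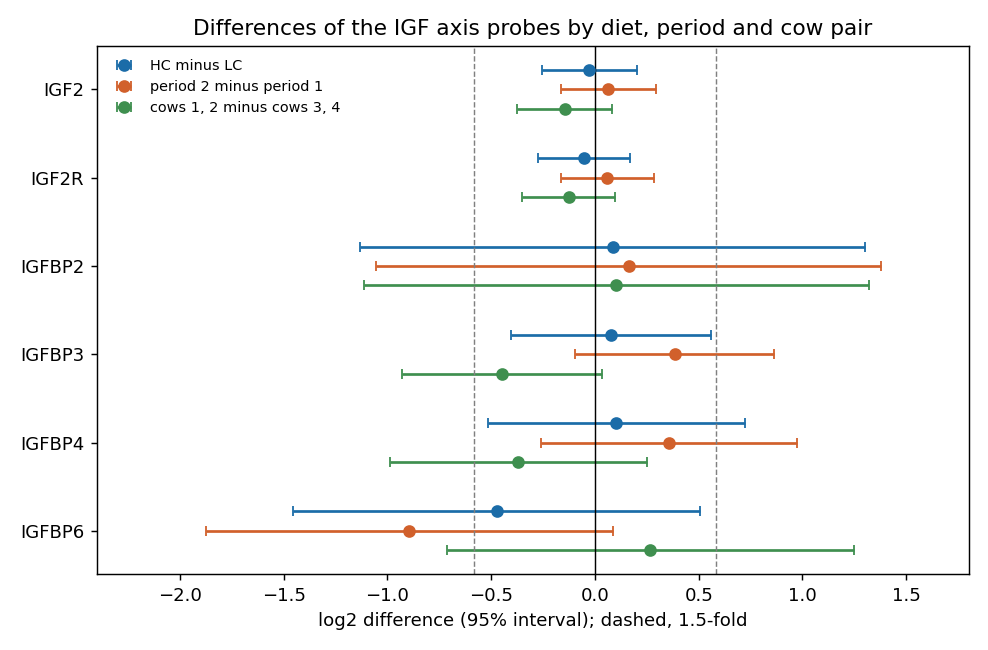
Log2 differences of the 6 IGF axis probes between diets, between periods, and between cows 1 and 2 and cows 3 and 4, with 95% intervals from limma. The dashed lines mark 1.5-fold. Every interval crosses 0, and those of IGF2 and IGF2R are the narrowest.

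In this crossover the interaction of diet and period equals the difference between the pair of cows 1 and 2 and the pair of cows 3 and 4. For it 0 of the 6 genes passed in limma, against 2.93% of all probes, and 0 had p under 0.05. IGFBP3 had the smallest, with -0.45 (log2, cows 1 and 2 minus cows 3 and 4, standard error 0.20, unadjusted limma p 0.0629). It became a call at -0.60 once cow 1 on LC was removed, and IGFBP4, at -0.37 over all arrays, became one at -0.64 once cow 4 on LC was removed. The smallest differences in size were -0.30 for IGFBP3 (unadjusted limma p 0.182) without cow 2 on LC and -0.094 for IGFBP4 (unadjusted limma p 0.570) without cow 3 on LC. Here both arrays of a cow count as separate samples although the contrast is one of cows, and over the mean of each cow 0 genes passed as well. In that fit IGFBP3 had an unadjusted p of 0.0259 in limma, with the same difference of -0.45, short of the fold threshold.

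The cows were also compared with one another, since each had 1 array per diet. The spread between the 4 cow means was 0.24 (log2) for IGF2, 0.23 for IGF2R, 1.45 for IGFBP2, 0.58 for IGFBP3, 0.81 for IGFBP4 and 0.64 for IGFBP6. By the F test for cow in limma, with diet and period as terms, 0 of the 6 genes had p under 0.05 together with 1.5-fold between the highest and lowest cow, against 13.6% of all probes. For IGFBP4 the unadjusted limma p was 0.0519 and the cow means were 9.71, 9.58, 10.39 and 9.63. It was called among the probes that passed a filter on dim probes (unadjusted limma p 0.0246), in the deposited table (0.0459), and with any 1 of 3 arrays removed, namely cow 4 on either diet or cow 3 on HC. The IGFBP2 cow means were 6.34, 6.58, 7.08 and 5.63, with unadjusted limma p 0.130, and it was called with any 1 of the 4 arrays of cows 1 and 2 removed. For IGFBP3 it was 0.317, with a call once cow 1 on LC or cow 2 on HC was removed. For IGFBP6 it was 0.760, and its 2 arrays differed within cows 1 and 4 by more than the cow means did.

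The 6 genes fell into different orders over the arrays, which is given as a description. The 3 arrays with the highest signal were those of cow 4 on both diets and of cow 3 on LC for IGF2, for IGF2R and for IGFBP3. IGFBP2 and IGFBP4 also shared their 3 highest arrays, which were those of cow 3 on both diets and of cow 1 on HC. The 2 arrays highest for IGFBP6, cow 1 on LC and cow 4 on HC, were the 2 lowest for IGFBP2.

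**Figure D3:**
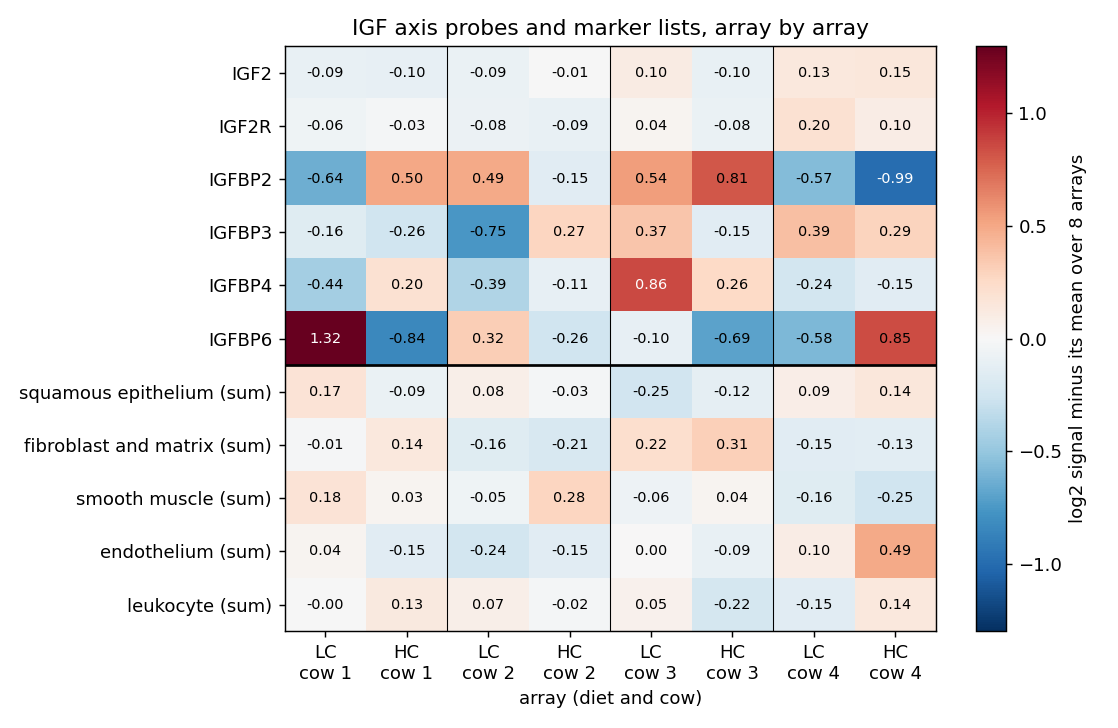
Signal of each IGF axis probe (above the line) and summed signal of the marker lists (below it) on each array, as log2 minus the mean over the 8 arrays. Columns are arrays, paired by cow, red is above and blue below the mean. The IGFBP2 and IGFBP4 rows and the fibroblast and matrix row are highest in the same 3 arrays, while IGFBP6 is highest in cow 1 on LC and cow 4 on HC.

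In bulk tissue, fewer cells of a type and less RNA per cell cannot be told apart, so markers of the cell types in a papilla are given beside these orders. For each list the signals were summed before log2, and the log2 of the sum is given. For 7 of 8 fibroblast and matrix markers (collagens, decorin and others), all above background on all 8 arrays, this sum was 13.82 to 14.21 on LC and 13.77 to 14.29 on HC. It was highest in the same 3 arrays as IGFBP2 and IGFBP4, at 14.29 and 14.21 in cow 3 on HC and LC and 14.12 in cow 1 on HC. The sum of 3 of 6 endothelial markers (KDR, TEK and CLDN5) was 9.44 to 9.78 on LC and 9.53 to 10.18 on HC, highest in cow 4 on HC, which was also the highest for IGF2. The sum of 5 of 10 epithelial markers was 18.48 to 18.91 on LC and 18.61 to 18.88 on HC, highest in cow 1 on LC and cow 4 on HC, as for IGFBP6. Cow 4 on LC came next in this sum but ranked 6 of the 8 arrays for IGFBP6. The ranges on LC and HC were 14.07 to 14.41 and 13.98 to 14.51 for 7 of 7 smooth muscle markers and 13.16 to 13.37 and 13.08 to 13.44 for 7 of 9 leukocyte markers. They were 11.80 to 13.32 and 11.55 to 13.14 for 2 of 2 red blood cell markers, and 4.15 to 4.52 and 4.02 to 4.56 for 2 of 3 adipocyte markers, of which LEP was above background on 4 arrays. The leukocyte sum too was highest in cow 4 on HC, and the red blood cell sum in cow 1 on LC. These shared arrays were noticed after the values were seen, and each sum gives most weight to the brightest genes of its list. No gene of the 7 lists was called for diet in limma. For cow, 3 of the 7 fibroblast and matrix markers and 1 of the 5 epithelial markers were called, against 13.6% of all probes. For period both adipocyte markers were called, 1 higher and 1 lower in period 2, against 3.86% of all probes. Both were dim, with a mean log2 signal on LC of 3.72 for PLIN1 and 2.39 for LEP. The part of these cell types in the IGF axis signals was not tested.

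The genes whose pattern was most like that of IGFBP6, the member with the widest range, were sought among 6468 named genes above background on all 8 arrays. The measure was the root mean square difference of the log2 signals after subtraction of each gene's mean over the 8 arrays, which come from 4 cows. CRIP1, a small LIM domain protein, was the nearest at 0.29, and its log2 signal was highest in cow 1 on LC (13.52) and cow 4 on HC (13.29). CALCRL, the receptor for adrenomedullin and CGRP, followed at 0.30, with 11.82 and 11.69 on these arrays. GABRP, a GABA receptor subunit found in epithelia, was at 0.31, with 8.12 and 7.02. The median over all genes compared was 0.75. All 3 were highest in the same 2 arrays as IGFBP6, which largely follows from choosing them by likeness over these arrays.

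Other genes of the pathway were taken from a list of 54, of which 21 had a probe and 17 were above background on all 8 arrays. IGFBP1 and IGF2BP1 were so on no array. None of the 21 was called for diet (0, against 0.922% of all probes) or for period (0, against 3.86%) in limma, and 1 had p under 0.05 for diet and 0 for period. Over the 17 genes, 10 were higher and 7 lower on HC, with log2 differences of -0.29 to 0.39 and a median of 0.00. The MAP kinase arm, which carries the growth signal to the nucleus, had the narrowest range of differences. These groups of genes were not tested against each other. MAP2K1, MAP2K2 and MAPK3 had log2 differences (HC minus LC) between -0.00 and 0.06, with unadjusted limma p of 0.573 to 0.981. The PI3 kinase subunits PIK3CA, PIK3R1 and PIK3R2, the first step of the growth and survival branch, had -0.06 to 0.14. RHEB, RPTOR and RPS6KB1, which link that branch to protein synthesis, and the kinase GSK3B had -0.12 to 0.09. RPS6KB1, singled out after the values were seen, was lower on HC within every cow (HC minus LC from -0.17 to -0.06). Its difference of -0.12 had unadjusted limma p 0.214 and 0.0286 in the exact permutation test, the smallest that test can give. Among the genes of the growth hormone arm (GHR, STAT5A, STAT5B and SOCS2) the difference was -0.06 to 0.39, with the highest for GHR, the growth hormone receptor, at an unadjusted limma p of 0.312. The GHR probe was dim, with a mean log2 signal of 3.75 on LC and 4.14 on HC.

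IGF2BP3, an RNA-binding protein that binds the IGF2 transcript, was the gene of the list with the smallest limma p for diet. Its log2 signal was 6.26 ± 0.35 (SD, n = 4) on LC and 5.97 ± 0.16 (SD, n = 4) on HC. HC minus LC was -0.29 (log2, standard error 0.12), a 1.22-fold lower signal and short of the fold threshold, with unadjusted limma p 0.0442 and 0.229 in the exact permutation test. Within cows 1, 2 and 4 it was -0.58, -0.51 and -0.32, and within cow 3 it was 0.25. Between different cows it was -0.63 in period 1 and 0.05 in period 2. The interaction of diet and period (cows 1 and 2 minus cows 3 and 4) was larger in size, at 0.34 (unadjusted limma p 0.0246). For diet, the unadjusted limma p of IGF2BP3 was 0.0786 when cow was a replicate block, 0.0572 with a random block and 0.147 as 2 groups only, and 0.0537 without moderation. With normexp the log2 difference was -0.13. PIK3CA, the catalytic subunit of PI3 kinase, came next. It had 9.62 ± 0.13 (SD, n = 4) on LC and 9.77 ± 0.04 (SD, n = 4) on HC, a difference of 0.14 (standard error 0.09) with unadjusted limma p 0.143, and 0.0329 without moderation. By the F test for cow, 3 of the 21 genes were called (GHR, GRB14 and RPTOR, named after their values were seen), near the 13.6% of all probes. Of these, GHR was dim and GRB14 was above background on 6 of the 8 arrays.

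**Figure D4:**
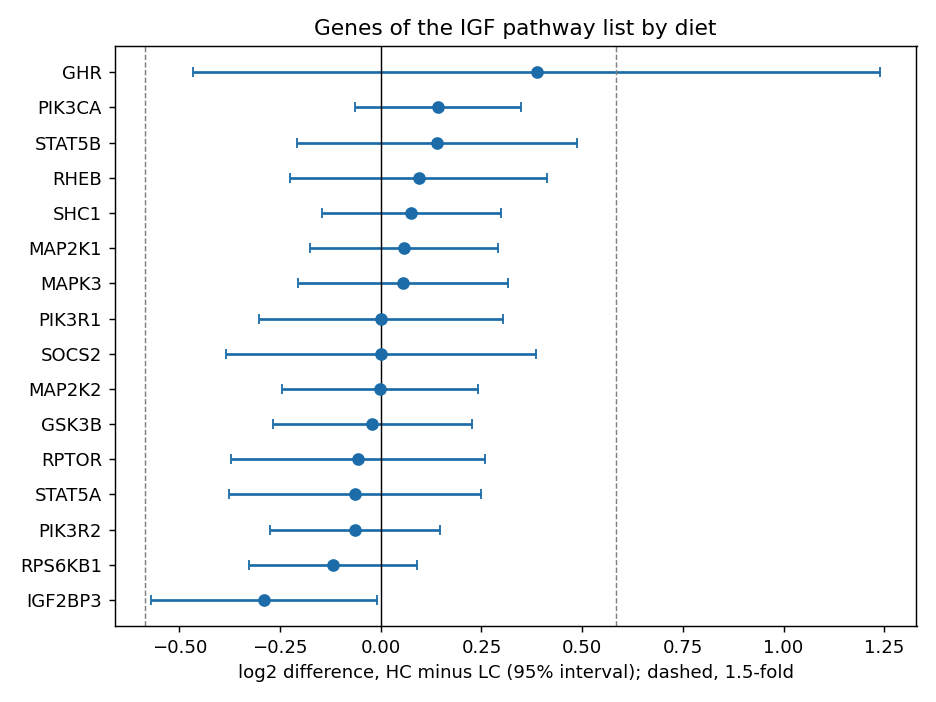
Log2 difference between HC and LC, with 95% intervals from limma, for the genes of the pathway list that were above background on all 8 arrays and are reported here. The dashed lines mark 1.5-fold. The points lie between -0.29 (IGF2BP3) and 0.39 (GHR), and none of these genes was called.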

How the data were processed

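Rumen papillae of 4 cows were measured on 8 single-colour arrays, 4 per diet. Groups follow the labels, which name each sample's diet, cow and period. The authors deposited, per the file headers, the intensity of each spot after background subtraction (Feature Extraction 10.7.3.1), without normalization between arrays. They also deposited a table of log2 values that they had quantile-normalized, which served as an alternative. Precision is limited by how many arrays there are.

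After removal of control spots and of the 0 to 13 outlier spots per array, intensities were taken to log2 and quantile-normalized in limma 3.58.1 (R 4.3.3), the algorithm that the study's methods name. Duplicate spots were averaged, and dim probes were kept. Probes were named by unversioned RefSeq accession through the gene table of ARS-UCD2.0: of 10176 probes with an accession, 8297 matched. The array's annotation is on another build (Btau_3.1), so no positions are given. The brightest probe stood for a gene.

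A model with diet, period and the interaction was fitted in limma to all 21475 probes (4 residual and 2.26 prior degrees of freedom), with Benjamini-Hochberg adjustment over all probes. The F test for cow used diet, period and cow, which left 2 residual degrees of freedom. Fewer remain once an array is left out and 1 cow has a single array, so calls for cow in those fits lean heavily on the prior. Single genes had an exact two-sided permutation test in scipy 1.17.1, whose smallest p with 4 arrays against 4 is 0.0286. It exchanged all arrays freely, and so kept neither the pairing by cow nor the balance of diet and period. The fits were run on simulated data with independent noise on each array and no effect of cow, which does not test them under the pairing by cow. Figures were drawn with matplotlib 3.10.9.

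The arrays of one cow pair across diets by the labels. The deviations from the diet mean correlated by 0.113 to 0.467 between the arrays of a cow, and by -0.237 to 0.185 between cows (16030 probes, which are not independent). These ranges overlap. The lowest value within a cow, 0.113, was that of cow 4, whose HC array correlated by 0.185 with the LC array of cow 1. Where normexp was used, it took the median in place of the mean signals, with an offset of 50. The 10 genes, the pathway list, the 7 marker lists and the thresholds were chosen with earlier results of these data known. The genes named from the pathway list are those called for diet or period and above background on all arrays of a group, and the 3 others with the smallest limma p for diet. The single values of RPS6KB1 were added after they were seen. Single results for some pathway genes are not reported here, while counts over the list include them. Other alternatives were scaling to the 75th percentile, a filter on dim probes, other model terms, the mean of a gene's probes, and leaving out each array.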

Additional observations from a re-analysis of the deposited data

Results flagged for a closer look

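The LC array of cow 3 stood apart for IGFBP4. Its log2 signal was 10.69, against 9.38 to 9.59 on the other 3 LC arrays, and its gap to the nearest of them, over the whole range of the group, was 0.843, above Dixon's 95% critical value for 4 arrays. Of 16 groups tested (the 6 IGF axis genes, IGF2BP3 and PIK3CA on each diet), this was 1, and chance flags about 1 in 20. The summed fibroblast and matrix signal on this array was 14.21, the highest of the LC arrays, and its part in the IGFBP4 signal was not tested.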

How the results depend on the processing

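For diet, 0 of the 6 genes were called under all 11 settings that kept every array, cow as a replicate block with period included (IGFBP6 -0.47, unadjusted p 0.340 from limma), and 0 to 1 as each array was left out. For period, 1 gene (IGFBP6) was called with cow as a random block, and 0 to 1 without an array. For the interaction the count was 0 to 1 without an array. For cow, it was 1 (IGFBP4) in the deposited table and with the filter on dim probes, and 0 to 2 without an array. A fit without 1 array leaves a diet with 1 array in a period, which is assumed to vary like the others.

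Of the 21 pathway genes, 0 to 2 were called for diet without an array (none of those called was above background on all arrays). For period, 1 (IGF2BP1, above background on no array) was called with 75th percentile scaling, as 2 groups only, without the interaction, with cow as a replicate or random block, and with the mean of a gene's probes, and 0 to 1 without an array. The cause was not tested.

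Over all probes, the count for diet (198) was 8 with normexp, 75 with the filter, 105 without moderation, 415 in the deposited table, and 239 to 404 without an array. The count for period (828) was 33 with normexp, 379 with the filter, and 847 to 1136 without an array. The filter tests fewer probes (16544).

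No setting that kept every array turned a log2 difference of the 6 genes. As each array was left out, it ranged for diet from -0.090 to 0.035 for IGF2, -0.36 to 0.54 for IGFBP2, -0.072 to 0.23 for IGFBP3, -0.17 to 0.38 for IGFBP4 and -0.86 to -0.087 for IGFBP6. For IGFBP2 it was -0.29 to 0.61 for period and -0.35 to 0.55 between the cow pairs, and for IGFBP6 between the cow pairs -0.12 to 0.65. Each of the 6 genes has 1 probe, so the mean of probes changes none of them.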
